A study of Mus musculus with 12 samples.

Results

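The T cell receptor complex and its first signaling steps were followed through 10 genes in the femoral bone marrow of untreated mice and of mice given cyclophosphamide with or without an oral treatment. The genes were chosen by name as the signaling chains of the receptor (Cd3d, Cd3e, Cd3g and Cd247), its coreceptors (Cd4, Cd8a and Cd8b1), its 2 proximal tyrosine kinases (Lck and Zap70) and the coreceptor-like inhibitor Cd5, and all 10 were found among the 34745 genes of the count table. RNA sequencing was done on 12 libraries from male ICR mice, an outbred stock, split evenly over 4 groups of 3. Mice of the normal group were given saline only. The other 3 groups shared intraperitoneal cyclophosphamide, an alkylating agent toxic to dividing cells, in a daily amount of 80 mg/kg from day 5 to day 7 of a week of oral treatment. By mouth the model group was given vehicle, the QJSB group Qi-Jing-Sheng-Bai granule (a herbal formula) at 3 g/kg daily, and the leucogen group leucogen (a drug used to raise white blood cell counts) at 20 mg/kg daily, in each case for 1 week. Each library was made from a separate mouse, so the spread given below is between mice.

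The T cell receptor itself has no enzyme of its own. Its antigen-binding chains are carried to the surface with the CD3 delta, epsilon and gamma chains and the CD247 (zeta) chain, whose cytoplasmic tails hold the tyrosines that are phosphorylated when the receptor is engaged. LCK, held near the receptor by CD4 or CD8, phosphorylates those tails, ZAP-70 docks on them and is activated in turn, and CD5 dampens the signal. Marrow is not a site of T cell development in the adult. It holds a small population of mature T cells, among them memory cells, beside far larger numbers of maturing granulocytes, red cell precursors and B cell precursors.

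Whole libraries held between 11172547 and 18545198 counts. The members were low in this tissue: in the normal group their summed level was 44.4 to 67.0 CPM (counts scaled by TMM to a common library size, which adjusts for depth and composition), whereas the summed levels of 8 late neutrophil markers and 10 erythroid markers were 17342 to 20890 CPM and 17415 to 21126 CPM. Single members often rested on a few counts, and libraries with 0 counts occurred for Cd3e, Cd3g, Cd247, Cd8b1 and Cd5. The other markers used to check for T cells were Trac, Trbc1, Trbc2, Bcl11b and Cd28. Of these, the receptor constant genes Trac and Trbc2 were present in every normal library, at 1.49 ± 0.663 and 3.95 ± 1.15 CPM (SD, n = 3), and both reached 0 in at least 1 model and 1 QJSB library. Mean Trbc2 was 0.467 CPM in model and 0.271 CPM in leucogen. The means of Trbc1 (0.728 and 0.922 CPM), Bcl11b (0.296 and 0.445 CPM) and Cd28 (1.66 and 3.93 CPM) were higher in leucogen than in model. Model replicate 1 and QJSB replicate 1 stood apart within their groups. Their late neutrophil sums, 4480 and 6810 CPM, were the lowest of all 12 libraries, and their B cell marker sums, 119 and 24.5 CPM, were the highest of their groups.

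Cd3g, Cd3d and Cd3e lie side by side on chromosome 9 of mm10 and are shown here by the 250 bases before their starts, because Cd3d differed from its neighbours in the values below. In the count table Cd3g spans 44969572 to 44980431, Cd3d 44981793 to 44987052 and Cd3e 44998743 to 45009590. In the GENCODE M21 annotation Cd3g (minus strand) and Cd3d (plus strand) are transcribed away from each other with starts 1355 bases apart, and Cd3e (minus strand) starts 27841 bases from Cd3d. The windows come from RefSeq (GRCm38.p6), are written 5′ to 3′ on the strand of the gene, and carry in capitals each CANNTG, the E-box letters bound by basic helix-loop-helix factors.
Cd3d, chr9:44981536-44981785, plus strand: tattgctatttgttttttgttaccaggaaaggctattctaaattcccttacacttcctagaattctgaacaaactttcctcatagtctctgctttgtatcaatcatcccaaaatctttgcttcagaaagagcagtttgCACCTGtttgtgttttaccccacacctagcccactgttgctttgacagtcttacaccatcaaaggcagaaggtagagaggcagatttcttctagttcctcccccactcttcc
Cd3g, chr9:44980432-44980681, minus strand: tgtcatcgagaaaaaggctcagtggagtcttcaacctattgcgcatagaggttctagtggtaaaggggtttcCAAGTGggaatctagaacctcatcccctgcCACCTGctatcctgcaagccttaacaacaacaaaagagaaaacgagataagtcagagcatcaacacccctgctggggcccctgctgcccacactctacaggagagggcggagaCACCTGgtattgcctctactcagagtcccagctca
Cd3e, chr9:45009612-45009861, minus strand: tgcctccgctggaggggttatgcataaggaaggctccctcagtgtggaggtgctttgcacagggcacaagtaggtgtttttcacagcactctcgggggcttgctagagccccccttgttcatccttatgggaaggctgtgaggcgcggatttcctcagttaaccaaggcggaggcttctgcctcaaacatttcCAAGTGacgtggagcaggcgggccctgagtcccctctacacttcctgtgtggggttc
CANNTG, read on both strands, occurred 1 time before Cd3d, 1 time before Cd3e and 3 times before Cd3g, and 66.2% of 32536 promoter windows of that length held it. GGAA, the core letters bound by ETS factors, occurred 6, 5 and 2 times before Cd3d, Cd3e and Cd3g on either strand, and 93.4% of windows held it. For GATA factors, AGATAA was found before Cd3g only, and 10.0% of windows held it. The letters of RUNX factors, TGTGGT, were in none of the 3 windows and in 14.0% of all. The same held for TTGCNNAA of C/EBP factors, in 9.6% of all windows, and for the TATA box letters TATAAA, in 12.3%. The CANNTG before Cd3e and 1 of those before Cd3g each share 1 base with a TTCC, the GGAA of the opposite strand. Windows were found for 8 of the 10 members.

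The CD3 chains were low after cyclophosphamide in all but 1 respect: in the leucogen group Cd3d stood nearer to its normal level than Cd3e and Cd3g did. Cd3d measured 14.8, 16.6 and 17.9 CPM in the normal mice, 1.21, 2.55 and 2.68 CPM in the model mice, 1.40, 11.3 and 4.53 CPM in the QJSB mice, and 10.1, 12.8 and 9.21 CPM in the leucogen mice. The normal group lay above every other library, and the leucogen group lay wholly above the model group. The QJSB mice spread from the model range to the leucogen range. In bulk marrow, fewer T cells and less of an RNA per T cell cannot be told apart, and this holds for each member below.

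Cd3e, the chain on which assembly of the CD3 dimers depends, measured 1.81, 4.23 and 4.57 CPM in normal, 1.21, 0.212 and 0 CPM in model, 1.35, 0.350 and 0.245 CPM in QJSB, and 0, 0.145 and 0.475 CPM in leucogen. Cd3g, the other partner of CD3 epsilon, measured 1.66, 2.11 and 3.07 CPM in normal, 0.462, 0.142 and 0.233 CPM in model, 0.756, 0.233 and 0 CPM in QJSB, and 0, 0.435 and 0.190 CPM in leucogen. Cd247, the zeta chain that carries most of the signaling motifs, measured 1.01, 1.16 and 1.91 CPM in normal, 0.693, 0.354 and 0 CPM in model, 0.486, 0.117 and 0.184 CPM in QJSB, and 0, 0.0725 and 0.570 CPM in leucogen. For these 3 genes the normal mice lay above all 9 cyclophosphamide-treated mice, and the 3 treated groups overlapped one another. Cd3e overlaps the antisense gene Gm48719 and Cd247 overlaps Pou2f1 on the other strand, each through exons, in GENCODE M21. The strand setting of the counting is not given in the sources used here, so reads of those partners may be included. On the same strand, Cd247 overlaps Gm16565 and Lck overlaps Mir8119 through exons. How reads in those stretches were assigned is not given either.

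Among the coreceptors, Cd4 kept the largest part of its normal level and Cd8b1 the smallest. Cd4, the coreceptor of helper T cells, which some macrophages and dendritic cells also express, measured 6.28, 8.60 and 11.3 CPM in normal, 5.20, 4.17 and 4.73 CPM in model, 4.48, 1.87 and 2.88 CPM in QJSB, and 3.33, 3.41 and 3.23 CPM in leucogen. Cd8a, the alpha chain of the cytotoxic coreceptor, measured 2.53, 6 and 3.61 CPM in normal, 1.79, 0.495 and 0.409 CPM in model, 0.594, 0.0583 and 0.306 CPM in QJSB, and 0.475, 0.0725 and 0.570 CPM in leucogen. Cd8b1, the beta chain, which is more restricted to T cells, measured 0.433, 2.32 and 2.45 CPM in normal, 0.462, 0.142 and 0 CPM in model, 0.216, 0 and 0 CPM in QJSB, and 0 in all 3 leucogen libraries. The normal mice lay above all others for Cd4 and Cd8a. For Cd8b1, normal replicate 1 (6 counts) fell below model replicate 1 (8 counts). All 3 coreceptors are on chromosome 6, Cd8b1 at 71322788 to 71337494, Cd8a at 71373427 to 71379173 and Cd4 at 124864692 to 124888221.

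Lck was the kinase with the most reads, and both kinases were low in every cyclophosphamide-treated group. Lck, the SRC family kinase that starts receptor signaling, measured 12.4, 13.8 and 18.1 CPM in normal, 4.51, 1.84 and 2.16 CPM in model, 2.38, 1.40 and 0.979 CPM in QJSB, and 1.66, 1.02 and 1.04 CPM in leucogen. Zap70, the kinase recruited to the phosphorylated tails, measured 2.09, 2.52 and 2.25 CPM in normal, 0.809, 0.425 and 0.175 CPM in model, 0.486, 0.233 and 0.306 CPM in QJSB, and 0.396, 0.0725 and 0.380 CPM in leucogen. Cd5, an inhibitory receptor found on T cells and on a subset of B cells, measured 1.37, 2.73 and 1.84 CPM in normal, 0.635, 0.354 and 0.642 CPM in model, 1.19, 0.641 and 0 CPM in QJSB, and 0.0792, 0.145 and 0 CPM in leucogen. The normal mice lay above all others for the 3 genes. The leucogen group had the lowest mean of Cd5, with 3 counts over the whole group, although QJSB replicate 3 had 0, and the leucogen Lck values lay wholly below those of the model mice. Lck (chromosome 4, 129548344 to 129573641), Zap70 (chromosome 1, 36761798 to 36782818), Cd5 (chromosome 19, 10718143 to 10738974) and Cd247 (chromosome 1, 165788681 to 165877277) are on other chromosomes than the Cd3d cluster.

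**Figure D1:**
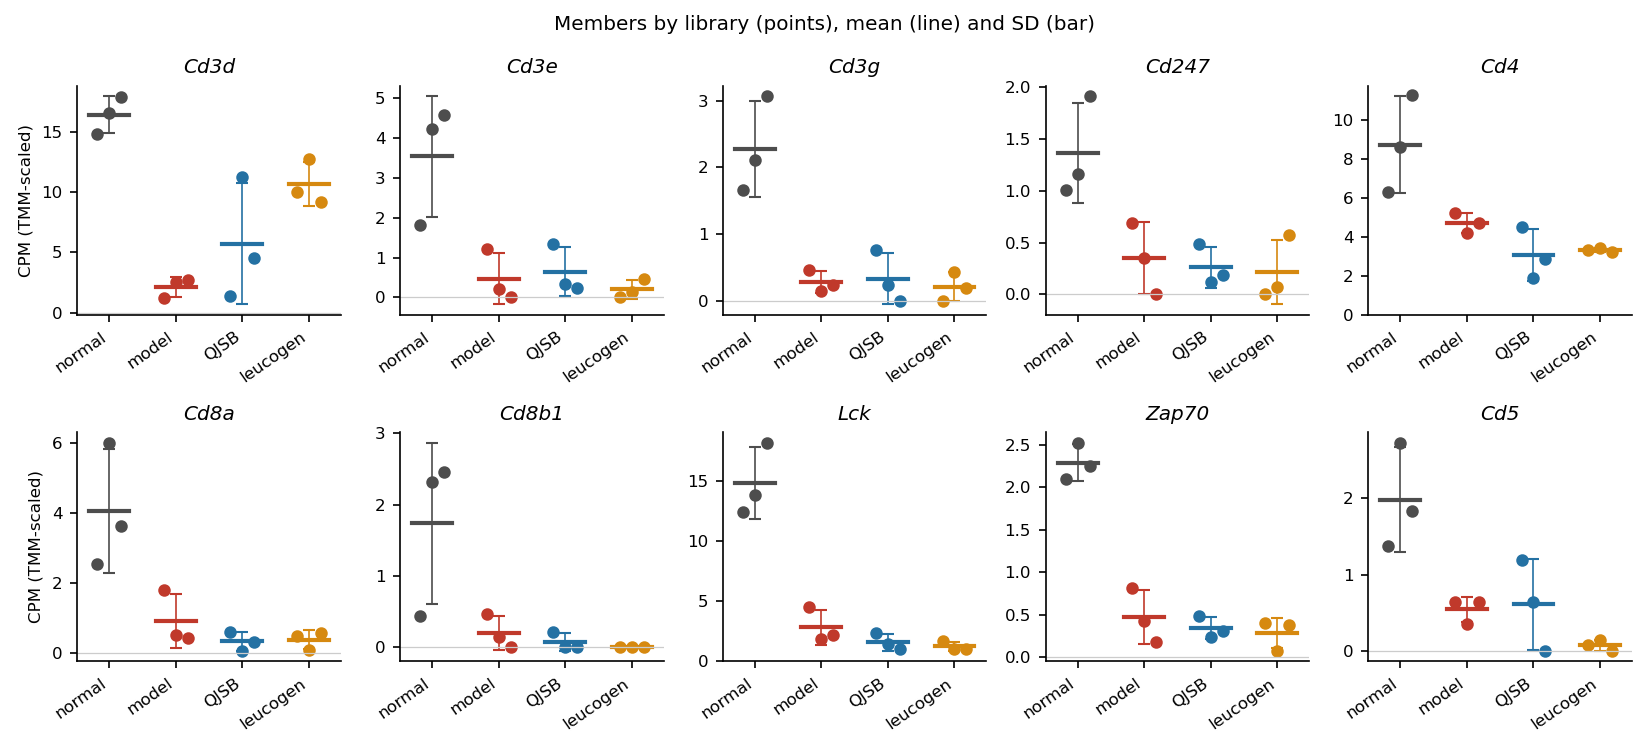
Level of each member (y axis, CPM after TMM scaling, own scale per gene) in the 4 groups, with a point per mouse, a line at the mean and a bar of 1 SD. For 9 genes the 3 normal mice lie above all others, Cd8b1 being the exception, and in the leucogen group only Cd3d (9.21 to 12.8 CPM) lies above the model group.

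To compare members with each other, levels were taken per length as the deposited FPKM. In the normal group Cd3d was the highest at 12.3 ± 1.29 FPKM (SD, n = 3), with all 3 libraries above every other member. Lck followed at 3.12 ± 0.664, Cd3e at 2.44 ± 1.06, Cd4 at 1.74 ± 0.516, Cd3g at 1.69 ± 0.553 and Cd8b1 at 1.16 ± 0.760 FPKM, and each of these neighbours overlapped the next. Cd5 (0.946 ± 0.329), Zap70 (0.540 ± 0.0525) and Cd8a (0.520 ± 0.228 FPKM) followed, with Zap70 below Cd5 in every library and Zap70 and Cd8a overlapping. Cd247 was the lowest at 0.163 ± 0.0597 FPKM. In the leucogen group Cd3d measured 7.72 ± 1.23 FPKM, Cd4 0.642 ± 0.0283 FPKM and every other member less than Cd4 in every library.

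Comparing the model group with the normal group asked what cyclophosphamide did to the receptor genes. Cd3d fell by 2.95 on the log2 scale (SE 0.30, adjusted p = 0.000155), Cd3g by 2.98 (SE 0.49, adjusted p = 0.00178) and Cd3e by 2.85 (SE 0.92, adjusted p = 0.0411). Lck fell by 2.38 (SE 0.35, adjusted p = 0.000971) and Zap70 by 2.27 (SE 0.49, adjusted p = 0.00657). Cd8a fell by 2.15 (SE 0.58, adjusted p = 0.0184) and Cd5 by 1.85 (SE 0.42, adjusted p = 0.00856). Cd4 had the smallest change, falling by 0.90 (SE 0.26, adjusted p = 0.0222). Cd247 had a log2 fold change of -1.95 (SE 0.77) and did not pass (adjusted p = 0.0743). Cd8b1 did not pass the filter on low counts and was not tested, with 76 counts over the normal group and 10 over the model group. These p-values come from edgeR's quasi-likelihood fit and were adjusted over all genes tested by Benjamini and Hochberg's method, and a gene was called where it changed over 1.5-fold with an adjusted p under 0.05. The comparisons against the normal group share its 3 libraries, and those against the model group share that group's 3.

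In all, 8 of the 9 members tested were called lower and 0 higher, where 19% of 14752 genes were called lower and 16.1% higher. The median over the 9 was -2.27 and that over all genes tested was 0.02. All 9 had groups that did not overlap, which 27.9% of genes showed in that direction. Cd3e, Cd3g, Cd247, Cd8a and Zap70 passed the filter only in comparisons that included the normal group, so they had to be higher there and the count over them is only a description. Cd3d, Cd4 and Lck passed it in all 6 comparisons. The calls of Cd3d, Cd3g and Lck were also made in each of the 15, 14 and 15 alternatives in which they could be tested, that of Cd3e in 7 of 14 (adjusted p up to 0.125), that of Cd4 in 10 of 15 (up to 0.103) and that of Cd8a in 10 of 14 (up to 0.0727). Without model replicate 1, the count rose to 10 of 10, with Cd247 and Cd8b1 added, and without model replicate 2 or normal replicate 2 it was 5.

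Markers of other cells also differed in that comparison. Of 10 B cell markers 9 were called lower, and their summed level was 1729 to 1781 CPM in normal against 15.3 to 119 CPM in model. All 10 erythroid markers were called lower, from a sum of 17415 to 21126 CPM to one of 337 to 2097 CPM. Of 14 NK cell markers 12 were called lower and 1 (Nkg7) higher, and 5 of 6 marrow progenitor markers were called higher, with sums of 760 to 951 CPM and 5754 to 9055 CPM. Of the NK cell markers 4, and of the B cell markers 4, passed the filter only in comparisons that included the normal group. No list had a marker at 0 throughout the normal or the model group among these 4. Lck, Cd5 and Zap70 are also expressed by B or NK cells, and the part of those cells in their change was not tested.

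**Figure D2:**
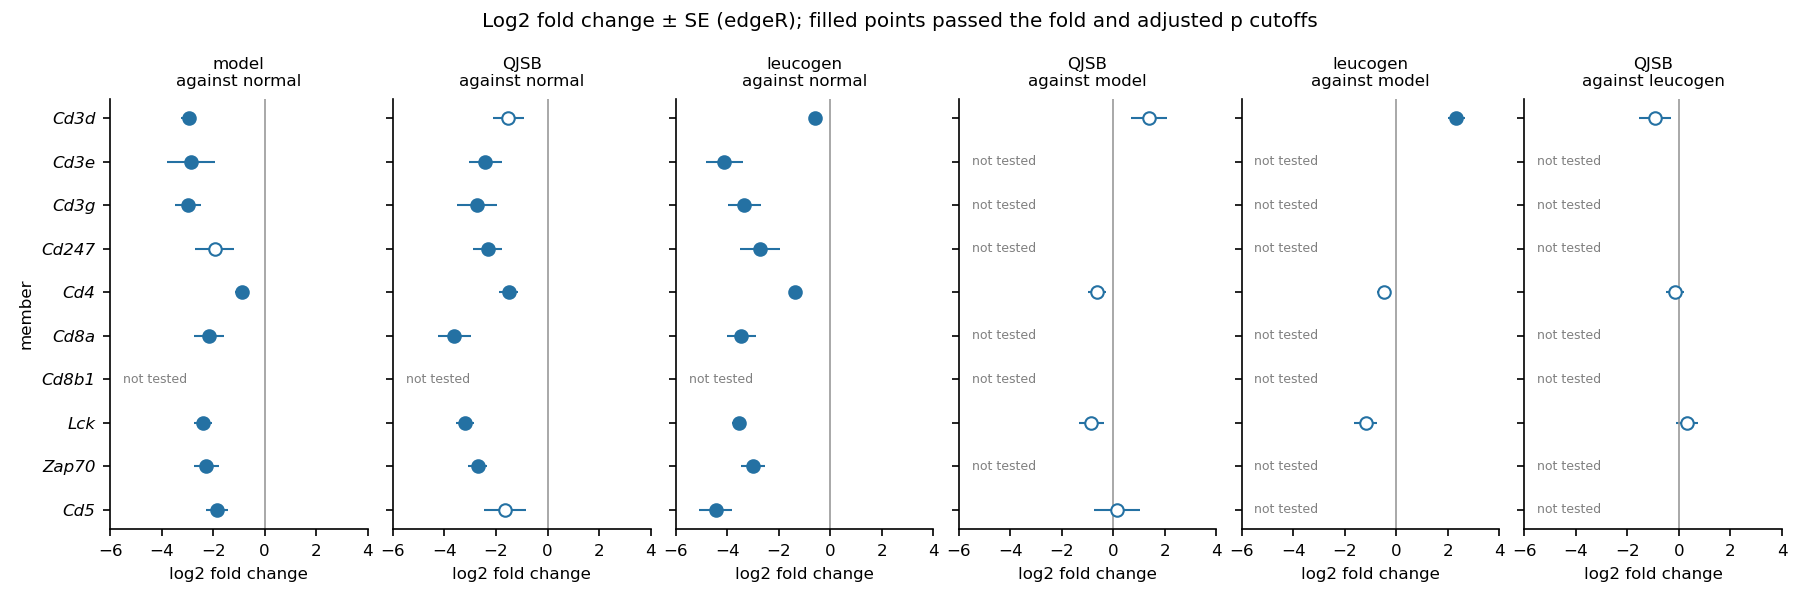
Log2 fold change (x axis) of each member (y axis) in the 6 comparisons, as points with bars of 1 SE from edgeR, filled where the gene was called. Against normal every tested member is below 0, and right of 0 the only filled point is Cd3d in leucogen against model at 2.33.

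The rest of the pathway was followed with lists of receptor constant genes, signaling adaptors, surface receptors and transcription factors. Of the 7 receptor constant genes 5 could be tested and were called lower in the model group, among them Trdc, the constant gene of the delta chain of gamma-delta T cells, by 3.16 (SE 0.43) and Trbc2, of the beta chain, by 3.09 (SE 0.73). Of 16 proximal adaptors and enzymes tested, 10 were lower and 1 (Vav1) higher. The largest falls were those of Rasgrp1, which activates RAS below the receptor, by 4.35 (SE 0.55) and Skap1, an adaptor for integrin activation, by 3.20 (SE 0.43). Of 11 costimulatory and other surface receptors 5 were lower, with Cd2 down by 5.15 (SE 0.46), and of 10 T lineage transcription factors 4 were lower and 1 (Zbtb7b) higher, with Lef1 down by 3.81 (SE 1.03) and Bcl11b by 3.77 (SE 0.70). Of 9 genes of the calcium and NFAT list tested 0 were lower and Nfatc2 was higher by 0.96 (SE 0.16). Of 13 negative regulators 4 (Csk, Dgka, Sit1 and Lax1) were lower and 1 (Ubash3a) higher, of 11 homing and survival receptors 8 were lower, and of 5 thymocyte genes 2 (Rag1 and Rag2, which B cell precursors share) were lower. Genes such as Trac, Trbc2, Cd2, Bcl11b and Sit1 passed the filter only in comparisons that included the normal group, so they had to be higher there, and the counts over these lists are a description. Several of the genes, such as Rasgrp1, Lef1 and Cd2, are used by B or NK cells too.

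QJSB against model asked whether the formula moved the receptor genes of treated mice, and no call was made at the adjusted cutoff. Of the 10 members only Cd3d, Cd4, Lck and Cd5 passed the filter. Cd3d had a log2 fold change of 1.39 (SE 0.69, adjusted p = 0.767), with 293 counts over the QJSB group against 103 over the model group. QJSB replicate 1 (1.40 CPM) lay within the model range and the other 2 above it. Cd4 had -0.63 (SE 0.36, adjusted p = 0.767), Lck -0.86 (SE 0.49, adjusted p = 0.767) and Cd5 0.15 (SE 0.91, adjusted p = 0.977), all in edgeR, with groups that overlapped. Cd3d and Lck differed in sign. None of the 4 had an unadjusted p under 0.05. Over all 14486 genes tested edgeR called 0% higher and 0% lower, with 723 genes at an unadjusted p under 0.05, and DESeq2 called 8 genes. At the study's cutoff (the same fold with unadjusted p under 0.05) edgeR had 1.68% of genes higher and 1.4% lower, and 0 of the 4 members passed. The study applied that cutoff to DESeq2, and there Cd3d passed it as higher in QJSB (log2 fold change 1.41, SE 0.63, adjusted p = 0.884 in DESeq2), where DESeq2 had 1.81% of genes higher and 1.26% lower. No other member passed it in DESeq2. The untested members had few counts in both groups: Cd3e 35 in QJSB and 24 in model, Cd3g 18 and 14, Cd247 14 and 17, Cd8a 17 and 45, Zap70 18 and 23, and Cd8b1 4 and 10. In the alternatives that could test them, 3 to 9 for each gene, none was called. None of the 15 other lists had a called gene.

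Leucogen against model asked the same of the reference drug, and here Cd3d separated from the other members. Cd3d was higher by 2.33 on the log2 scale (SE 0.32, adjusted p = 0.00280), from 2.15 ± 0.813 to 10.7 ± 1.86 CPM (SD, n = 3). It was called higher in each of the 15 alternatives, with log2 fold changes from 1.70 to 2.55. Lck had a log2 fold change of -1.17 (SE 0.45) and did not pass the adjusted cutoff (adjusted p = 0.0778), although it was lower at the study's cutoff in edgeR, as were 15.6% of genes. Cd4 had -0.48 (SE 0.25, adjusted p = 0.175). These are edgeR values, with 11.6% of 14184 genes called higher and 11.5% called lower. Groups did not overlap for Cd3d (leucogen higher, as for 21.8% of genes) nor for Cd4 and Lck (leucogen lower, as for 24.1% of genes).

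The other 7 members did not pass the filter in that comparison and had few counts. Cd3e had 7 counts over the leucogen group and 24 over the model group, Cd3g 8 and 14, Cd247 7 and 17, Cd8a 13 and 45, and Zap70 10 and 23. None of them had more counts in the leucogen group, and each overlapped between the groups. Cd5 had 3 counts against 27, a level 6.84-fold lower relative to library size (95% interval of the counts 2.11 to 35.2), and the 3 leucogen libraries lay below the model libraries. Cd8b1 had 0 counts against 10 and was at least 2.53-fold lower, with a floor of 3 counts over the group. The intervals and the floor cover counting error only. Of 5 alternatives that could test Cd5, 1 called it lower, limma on log2(FPKM + 0.1) (log2 fold change -1.50, adjusted p = 0.0293). Its mean was 0.281 FPKM in model and 0.0346 FPKM in leucogen, under the added 0.1. Cd5 thus passed the FPKM filter of that fit only through the model group.

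The summed levels of several lists had, as Cd3d had, their highest mean among the cyclophosphamide-treated groups in leucogen. That of 12 T lineage transcription factors was 354 to 364 CPM in normal, 209 to 277 CPM in model, 257 to 349 CPM in QJSB and 336 to 377 CPM in leucogen. Satb1 alone held 119 ± 18.6 CPM of that sum in model and 195 ± 12.5 CPM in leucogen (SD, n = 3). Bcl11b and Lef1 measured 0.296 and 3.90 CPM in model and only 0.445 and 0.431 CPM in leucogen. That of 18 proximal adaptors and enzymes was 2426 to 2752 CPM in normal, 1477 to 2021 CPM in model, 1358 to 1843 CPM in QJSB and 2707 to 3007 CPM in leucogen. Most of it was Ptprc, a gene of all white blood cells, at 1063 ± 313 CPM in model and 2072 ± 129 CPM in leucogen (SD, n = 3). The late neutrophil markers also had their highest treated mean in leucogen. Of 8 such markers 6 were called higher in leucogen against model, and their summed level was 4480 to 18459 CPM in model, 6810 to 34564 CPM in QJSB and 46251 to 55194 CPM in leucogen. Within the QJSB group the library with the lowest sum, replicate 1, had the lowest Cd3d, and replicate 2, with the highest sum, had the highest Cd3d. That order did not hold in full within the other groups. In leucogen, replicate 3 had the highest sum (55194 CPM) and the lowest Cd3d (9.21 CPM). In model, replicate 1 was lowest in both, but replicate 2 had the highest sum (18459 CPM) and replicate 3 the highest Cd3d (2.68 CPM). The normal libraries had the highest Cd3d of all with sums of 17342 to 20890 CPM. The summed level of the other 9 members went the other way, from 8.14 to 15.8 CPM in model to 4.90 to 11.9 CPM in QJSB and 5.37 to 6.46 CPM in leucogen, after 29.6 to 49.1 CPM in normal. Marrow progenitor markers were lower in leucogen than in model (4 of 6 called), with sums of 2992 to 4078 CPM. The part of neutrophils or of other cells in the Cd3d level was not tested.

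The share of Cd3d among all counts of the 10 members made the same separation without any scaling between libraries. It was 33.3%, 27.6% and 26.7% in the normal mice, 7.14%, 23.8% and 24.3% in the model mice, 10.5%, 69.7% and 48.1% in the QJSB mice, and 62.9%, 70.4% and 58.8% in the leucogen mice. The leucogen libraries lay above all normal and model libraries. In QJSB, replicate 2 was within the leucogen range and replicate 1 within the model range.

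**Figure D3:**
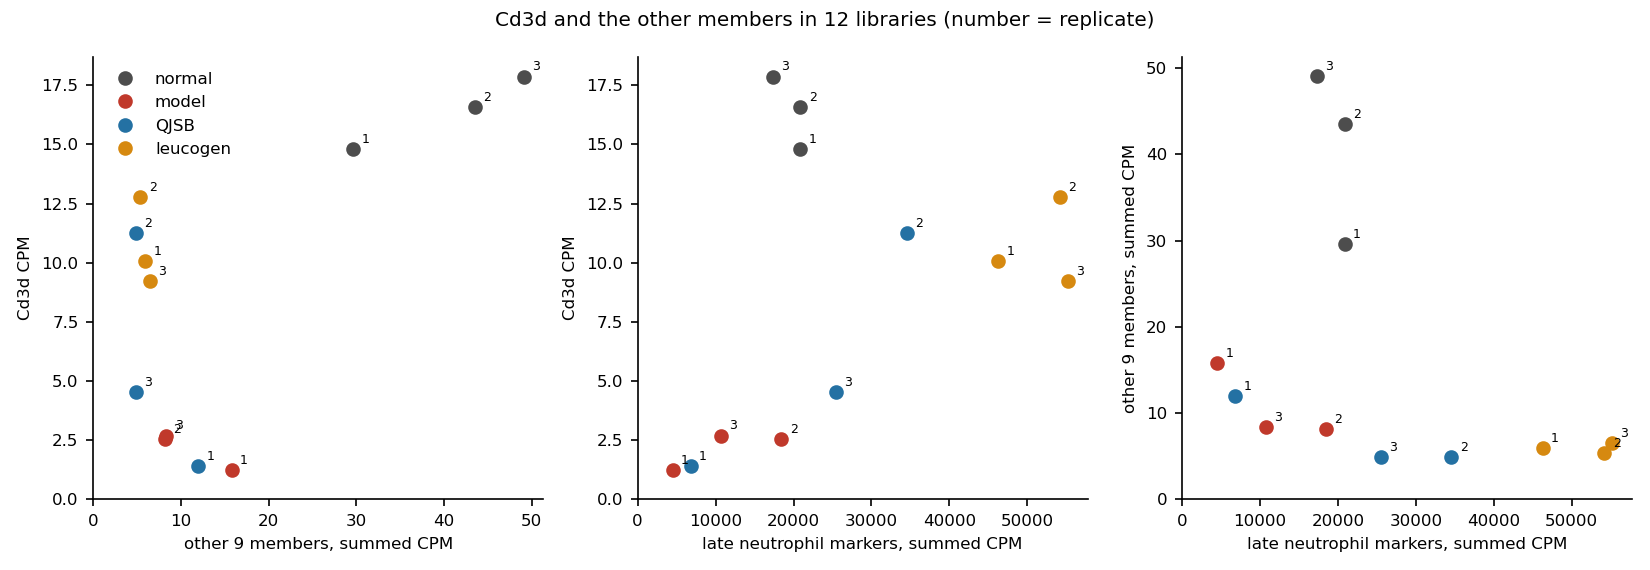
Cd3d (y axis, CPM) against the summed level of the other 9 members (left, CPM) and against the summed level of 8 late neutrophil markers (middle, CPM), and the other 9 members against the same markers (right); each point is a mouse, numbered by replicate. The leucogen mice have Cd3d at 9.21 to 12.8 CPM with the other 9 members at 5.37 to 6.46 CPM, whereas the normal mice are high in both.

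Other pathway genes were called in both directions in leucogen against model, where edgeR called 11.6% of all genes higher and 11.5% lower. Beside those shares the small counts of the lists are only a description. Of 15 proximal adaptors and enzymes tested 2 were called higher, Ptprc (CD45, the phosphatase that primes LCK and is on all white blood cells) by 0.98 (SE 0.22) and Malt1 by 0.59 (SE 0.16), and 0 lower. Of 9 costimulatory and other surface receptors 4 were called lower. Pdcd1 (the inhibitory receptor PD-1) was lower by 5.85 (SE 0.96), with 1 count over the leucogen group against 99 over the model group. Pdcd1 passed the filter only through the model group, so it had to be higher there and its call is only a description. Relative to library size it was 75.3-fold lower, with an interval of the counts, taken as for Cd5, of 13.2 to 3003. Its mean was 0.856 CPM in normal, 2.06 in model, 1.46 in QJSB and 0.0242 in leucogen. Cd6, a relative of CD5, was lower by 1.71 (SE 0.56), Cd27 by 1.20 (SE 0.37) and Ly9 by 0.80 (SE 0.15). Of 3 receptor constant genes tested 0 were called, and of 9 genes of the calcium and NFAT list Tnf and Ppp3ca, a calcineurin subunit, were higher by 1.40 (SE 0.27) and 0.80 (SE 0.16). Of 12 negative regulators 2 were higher, Pag1 by 0.80 (SE 0.20) and Dgka by 0.73 (SE 0.14), and Cblb, a ubiquitin ligase, was lower by 1.16 (SE 0.18). Of the rest, of 7 transcription factors Satb1 was higher, and of 5 thymocyte genes Dntt was lower. Il2 and Il17a, cytokine genes of activated T cells, were at 0 in every library of the series.

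Neither treated group was at the normal level, and the distance differed by member. In QJSB against normal, edgeR called 7 of the 9 members tested lower, where 19.9% of 14817 genes were called lower and 18% higher. Cd3e, Cd3g, Cd247, Cd8a and Zap70 passed the filter there only through the normal group, so that count is only a description. Lck fell by 3.21 (SE 0.34, adjusted p = 0.000307), Cd8a by 3.62 (SE 0.63), Cd3g by 2.73 (SE 0.78), Zap70 by 2.71 (SE 0.38), Cd3e by 2.41 (SE 0.65), Cd247 by 2.32 (SE 0.57) and Cd4 by 1.50 (SE 0.37). Cd3d had -1.53 (SE 0.60, adjusted p = 0.0741) and Cd5 -1.67 (SE 0.81, adjusted p = 0.131) in edgeR, and neither was called. All 9 had groups that did not overlap, as did 29.3% of genes in that direction. Cd3d was called in 7 of 15 alternatives, among them the edgeR fits without QJSB replicate 1 (-1.06, adjusted p = 0.0414) and without QJSB replicate 2 (-2.48, adjusted p = 0.00735). Without normal replicate 3 the count of members called fell to 3.

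In leucogen against normal, edgeR called all 9 members tested lower, where 19.8% of 14637 genes were called lower and 17.8% higher, and 32.1% had groups that did not overlap in that direction. Cd3e, Cd3g, Cd247, Cd8a, Zap70 and Cd5 passed the filter there only through the normal group. They had to be higher in normal, so the count is only a description. Lck fell by 3.55 (SE 0.26, adjusted p = 2.74e-06) and Cd3e by 4.12 (SE 0.71, adjusted p = 0.00116), against 0.60 for Cd3d (SE 0.16, adjusted p = 0.00994). Cd8a fell by 3.45 (SE 0.56), Cd3g by 3.34 (SE 0.64), Zap70 by 3.00 (SE 0.48), Cd247 by 2.74 (SE 0.78) and Cd4 by 1.37 (SE 0.24). Cd5, with 3 counts in the leucogen group, was 24.5-fold lower relative to library size (95% interval of the counts 8.12 to 121), and its adjusted p in edgeR was 0.000235. Cd8b1, untested and at 0 in the leucogen group against 76 counts, was at least 21.7-fold lower with the floor of 3 counts. The Cd3d call was the least firm: its size was under the fold cutoff without normal replicate 3 (-0.54), without leucogen replicate 1 (-0.56) and without leucogen replicate 3 (-0.52). In an edgeR fit of all 12 libraries the adjusted p of Cd3d was 0.370.

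QJSB against leucogen tested the 2 treatments directly. Of the 3 members that passed the filter none was called by edgeR, and none had an unadjusted p under 0.05; DESeq2 called none of the 10 either. Cd3d had a log2 fold change of -0.94 (SE 0.62, adjusted p = 0.293), Cd4 -0.14 (SE 0.35, adjusted p = 0.783) and Lck 0.32 (SE 0.44, adjusted p = 0.620). Over all 14266 genes edgeR called 11.7% lower and 12.9% higher in QJSB. Without QJSB replicate 2, the QJSB mouse with the highest Cd3d, Cd3d was called lower in QJSB (-1.87, adjusted p = 0.0337). Cd5 had 33 counts in QJSB and 3 in leucogen, 7.81-fold higher relative to library size (95% interval of the counts 2.45 to 39.8), with groups that overlapped at QJSB replicate 3 (0 counts).

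Ratios between members within a library do not depend on the scaling between libraries. The log2 FPKM ratio of Cd4 to Lck was -1.06, -0.77 and -0.77 in the normal mice, 0.13, 1.10 and 1.05 in model, 0.84, 0.34 and 1.48 in QJSB, and 0.92, 1.67 and 1.55 in leucogen, so Lck exceeded Cd4 only in the normal mice. The difference from normal was 1.63 in model, 1.75 in QJSB and 2.25 in leucogen, each with an exact two-sided permutation p of 0.1, the smallest that 3 against 3 can give. Cd4 to Cd8a was 1.79 ± 0.58 in normal, 3.35 ± 1.05 in model, 4.35 ± 1.12 in QJSB and 4.26 ± 1.68 in leucogen (log2, SD, n = 3), and only QJSB and leucogen did not overlap normal (exact p of 0.1 each). It was highest in QJSB replicate 2 (5.63) and leucogen replicate 2 (6.19), where Cd8a had 1 count each. Cd3d to Lck was 1.99 ± 0.16 in normal, 1.46 ± 1.32 in model, 3.31 ± 1.98 in QJSB and 4.96 ± 0.53 in leucogen, and leucogen did not overlap normal or model (exact p of 0.1 each). Zap70 to Lck stood at -2.51 ± 0.29 in normal and -2.57 ± 0.79, -2.02 ± 0.46 and -2.28 ± 1.22 in the others, with overlap throughout. Of 114 ratio comparisons 39 could be computed in every library, 8 reached the smallest p, and the smallest Benjamini-Hochberg value was 0.488 (exact permutation tests). Lck replaced Cd3e as the common denominator after the zeros of Cd3e were seen.

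**Figure D4:**
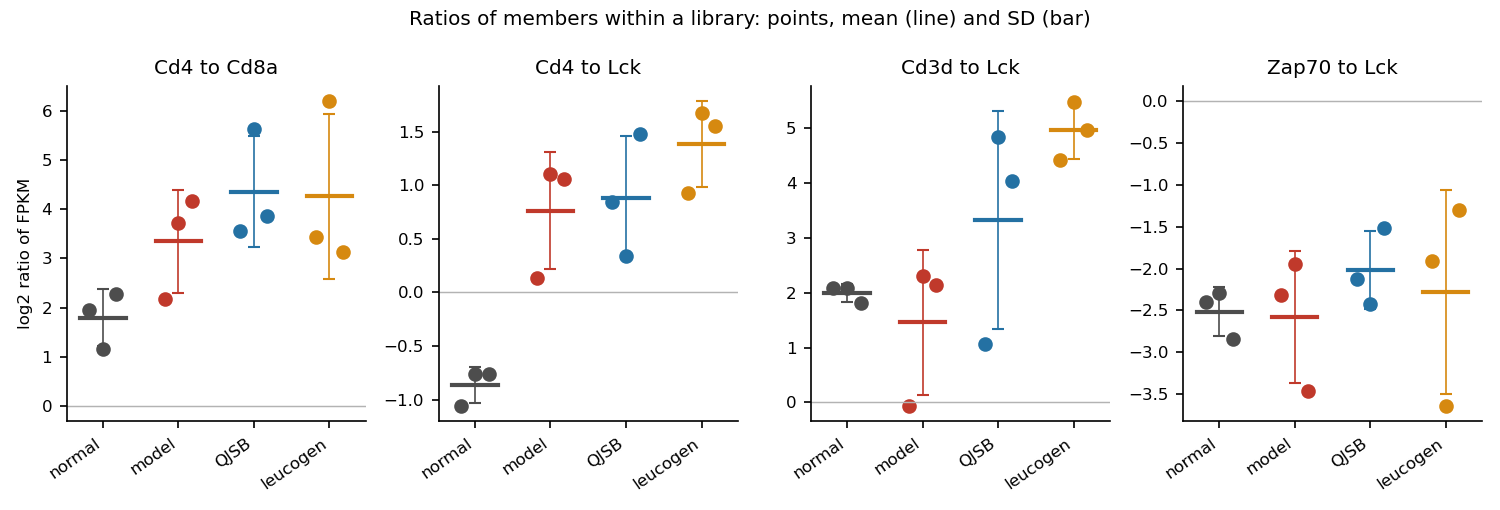
Log2 ratio of the deposited FPKM of 2 members within a library (y axis) by group, with a point per mouse, the mean as a line and 1 SD as a bar. Cd4 to Lck is below 0 in the 3 normal mice and above 0 in the other 9, and Cd3d to Lck is highest in leucogen at 4.96 ± 0.53.

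Among themselves the other 9 members varied together over the 12 libraries, and Cd3d with them less. Pearson's r of log2 CPM was 0.58 to 0.95 over the 36 pairs without Cd3d (median 0.85) and 0.09 to 0.34 over the 9 pairs with Cd3d (median 0.23). Cd3e and Cd247, and Cd8a and Zap70, were the closest pairs at 0.95. Cd3d and Cd3g, the neighbours on chromosome 9, had 0.34, whereas Cd3g and Cd3e had 0.87. The 12 libraries fall into 4 groups with most of the difference between normal and the rest, so these values describe the groups as much as the mice.

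**Figure D5:**
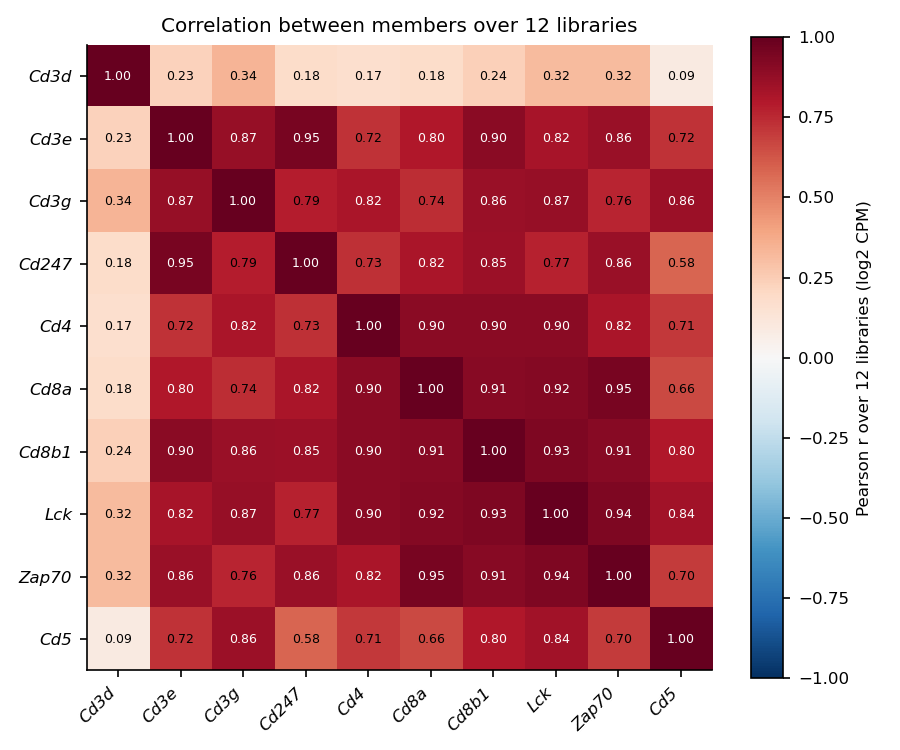
Pearson's r of log2 CPM between each pair of members over 12 libraries, from blue (-1) to red (1). The row of Cd3d holds 0.09 to 0.34, and all other pairs lie between 0.58 and 0.95.

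The genes most like the members over these 12 libraries were sought among 12359 others with at least 1 CPM in 3 libraries. For the mean scaled profile of all 10 members they were Acss1, Slc2a4, Irf4, Gimap6, Caprin2, Akap12, Ltk, Mns1, Alkbh8 and Chst3, with r from 0.975 to 0.981. Irf4, a transcription factor of activated and differentiating lymphocytes, went from 153 ± 14.4 CPM in normal to 6.08 ± 5.18, 2.55 ± 2.70 and 1.34 ± 0.415 CPM in model, QJSB and leucogen (SD, n = 3). Gimap6, of a GTPase family of lymphocytes, went from 63.6 ± 12 to 13.6 ± 9.19, 7.28 ± 3.03 and 6.89 ± 2.03 CPM. Acss1, the first of the 10, went from 82.4 ± 6.48 to 13.8 ± 6.94, 12.6 ± 6.93 and 7.49 ± 0.420 CPM. These genes were found by their likeness to the members in these libraries, so their falls follow from the choice. When Cd3d was left out, Alkbh8, Irf4, Acss1, Gimap6 and Mns1 remained among the 10 and Chd3, Tspan13, Pou2af1 (a B cell coactivator), Aff3 and Gimap3 came in, with r from 0.970 to 0.978. The 10 genes most like Cd3d alone shared no gene with either set and included Amer2, Ddx58, Cyp4f18, Hipk1, Atp6v0a1, Tinagl1 and Timp2, with r from 0.968 to 0.980. Cyp4f18, a leukotriene B4 hydroxylase of neutrophils, measured 47.3 ± 3.41 CPM in normal, 8.62 ± 2.78 in model, 21.8 ± 15.7 in QJSB and 27.2 ± 2.61 in leucogen, the same order of groups as Cd3d. Since Cyp4f18 was found by its likeness to Cd3d in these libraries, that order follows from the choice and tells nothing of the cells that hold Cd3d.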

How the data were processed

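Per the labels and the methods of the study, ribosomal RNA was depleted, strand-specific libraries were sequenced, and reads were aligned with HISAT2 to mm10. The counting program, its strand setting and the annotation version are not given in the sources used here. The authors deposited 1 table with a raw count and an FPKM value per gene and library. Its column headings were matched to the groups by their meaning: blank to normal, model to model and positive to leucogen. The remaining heading, Stilbene, is in no label and was assigned to QJSB by elimination, without another check, and every QJSB value rests on that.

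Counts of all genes passing filterByExpr were fitted per pair of groups with edgeR 4.0.16 (TMM, robust quasi-likelihood test) in R 4.3.3, with Benjamini-Hochberg adjustment over all genes tested. Alternatives used DESeq2 1.42.0, limma 3.58.1 on log2(FPKM + 0.1) and log2(FPKM + 1) over genes averaging 0.1 FPKM or more, other scalings and filters, and fits without each mouse. The scripts were tested on simulated data. Library totals ran from 11172547 to 18545198 counts. The members and lists were chosen with earlier results of these data known. Other genes named are, per list and comparison, at most 3 called genes with the largest change and a mean of 1 CPM or more, and the 10 genes most like the members. The genes most like Cd3d alone, Nkg7, Vav1, Ubash3a, Sit1, Csk, Zbtb7b, Ly9 and Cd28 were picked out after their values were seen. Some genes that these rules name are not reported here.

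Deviations of same-numbered mice correlated positively in every pair in QJSB against model (r of 0.453, 0.136 and 0.102) and QJSB against leucogen (0.174, 0.157 and 0.110), and not in every pair of the other comparisons. In QJSB against model only 2 of 6 libraries correlated best with their own number, against 6 of 6 in QJSB against leucogen. The numbers come from the labels, which name no shared batch.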

Additional observations from a re-analysis of the deposited data

How the results depend on the processing

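Where each library had to hold 10 counts or more, 3 members remained to be tested against normal, and 3 (model), 2 (QJSB) and 3 (leucogen) were called. In leucogen against model, limma on log2(FPKM + 0.1) called 2 members, and all other alternatives 1. With the replicate block, 0 members were called in QJSB against model and in QJSB against leucogen, 7 in model against normal and in QJSB against normal, 9 in leucogen against normal and 1 in leucogen against model. In the comparisons against normal and in leucogen against model same-numbered libraries did not all deviate together. Whether the numbers stand for a shared batch cannot be told from these correlations, and the labels name none. All 6 libraries correlated best with their own number in QJSB against leucogen, and at most 2 of 6 in every other comparison. Leaving out 1 mouse gave 5 to 10 called members in model against normal, 3 (without normal replicate 3) to 10 in QJSB against normal, 7 to 10 in leucogen against normal, 1 in leucogen against model, 0 in QJSB against model, and 0 to 1 in QJSB against leucogen. The sign turned for Cd5 in QJSB against model, with log2 fold changes of -0.12 (replicate block), -0.30 (FPKM + 0.1), -0.0012 (FPKM + 1), and -0.76 (without QJSB replicate 1) to 0.72 without 1 mouse, also -0.06 without model replicate 2. It turned for Lck in QJSB against leucogen, with -0.11 (without QJSB replicate 1) to 0.58, and for Cd4 there, with -0.53 to 0.13 (without QJSB replicate 2). The cause was not tested. Total counts in place of TMM moved the median of all genes from -0.05 to -0.22 in leucogen against model and from 0.02 to 0.14 in model against normal, and the members called were then 1 and 7. The limit is depth: at 0 to 31 counts per library, Cd3e, Cd3g, Cd247, Cd8a, Cd8b1 and Zap70 were too low to pass the filter between the 3 treated groups.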

Other observations

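Of 14 markers of natural killer cells, which share ZAP-70 and CD247 with T cells, 8 could be tested in QJSB against leucogen, and 3 (Ncr1, Gzma and Klra8) were called lower in QJSB and 1 (Nkg7) higher, where edgeR called 11.7% of all genes lower and 12.9% higher. Nkg7, a cytotoxic granule gene, measured 119 ± 23.8 CPM in QJSB and 50.8 ± 11.9 CPM in leucogen, and it took up most of the summed level of the list, 132 ± 27.0 and 91.6 ± 19.8 CPM. Ncr1, an activating receptor of these cells, measured 11.9 ± 1.55 CPM in normal, 1.28 ± 0.809 in model, 0.666 ± 0.163 in QJSB and 5 ± 3.75 in leucogen (SD, n = 3). It was lower in QJSB than in leucogen by 2.92 on the log2 scale (SE 0.65, edgeR adjusted p = 0.0130). Gzma, a granzyme, measured 14.1 ± 1.38, 1.99 ± 1.79, 0.988 ± 0.290 and 6.96 ± 5.01 CPM in the same order of groups, with a log2 difference of -2.85 between QJSB and leucogen (SE 0.70, edgeR adjusted p = 0.0213). In leucogen against model neither passed in edgeR (adjusted p = 0.0927 and 0.197). Cd28, the main costimulatory receptor of T cells, measured 6.17 ± 0.821 CPM in normal, 1.66 ± 0.863 in model, 1.46 ± 0.979 in QJSB and 3.93 ± 0.920 in leucogen. The leucogen mice lay above the model mice for Cd28, and the edgeR test missed the cutoff (adjusted p = 0.0548).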
